A study of Mus musculus with 29 samples.

Results

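The subject is a group of 10 genes for secreted growth factors of the TGF-beta superfamily and for the proteins that bind and block them: the bone morphogenetic proteins Bmp4, Bmp5, Bmp6 and Bmp8b, the activin subunits Inhba and Inhbb, myostatin (Mstn), and the antagonists Fst, Fstl3 and Grem1. They were taken by symbol from the 24770 gene symbols of the deposited table, where all 10 were found. The mice were male C57BL/6J of wild-type genotype, from 8 weeks of age, and they were assigned for 8 weeks to chow diet without intervention (control), calorie restriction (CR), treadmill running (EX) or both (CREX). Restricted mice were brought down in weekly steps of 10% to 70% of free intake, and trained mice ran for 1 h at 12 m/min on 5 days per week and were killed 24 h after the last bout. Whole pieces of brown adipose tissue (BAT) and of gastrocnemius muscle (skeletal muscle, SkM) were sequenced, 1 library per mouse and tissue, from 3 control, 4 CR, 4 EX and 4 CREX mice for BAT and 4 control, 3 CR, 4 EX and 3 CREX mice for SkM. All mice had fasted for 6 h before harvest.

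BMPs, activins and myostatin are secreted as dimers that bring together type I and type II receptor kinases on the target cell. BMPs act mainly through SMAD1, SMAD5 and SMAD9 and switch on genes of the Id family and the feedback inhibitor Smad6, whereas activins and myostatin act through SMAD2 and SMAD3. Follistatin, encoded by Fst, and the related Fstl3 bind activins and myostatin, and gremlin, encoded by Grem1, binds BMPs. In brown fat, BMP signals take part in the commitment of progenitors and, for Bmp8b, in the thermogenic response. In muscle, myostatin restrains fibre growth and follistatin relieves that restraint.

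BAT libraries held 21047242 to 24919377 counts and SkM libraries 23050918 to 23425284. Levels are given as CPM (counts scaled to the library total) adjusted with the TMM factors of the tissue, and 3 counts in a library correspond to between 0.12 and 0.143 CPM in a BAT library and between 0.128 and 0.13 CPM in an SkM library, a limit that covers counting error only. The tissue labels were borne out by Ucp1, with a median of 4200 CPM in BAT control libraries, and by the 12 muscle fibre markers, which summed to 135000 to 154000 CPM in SkM control libraries. BAT libraries also held muscle fibre transcripts, in sums from 47.6 to 7440 CPM, and 3 of them (EX mice 2 and 3 and CREX mouse 3) stood highest, so BAT comparisons that include these libraries were also run without them. Whole tissues were sequenced, in which fewer cells of a type and less RNA per cell cannot be told apart.

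In control BAT, Bmp6 was the most abundant member per length, at 5.49 ± 0.722 CPM per kb of exon (SD, n = 3), and Fst followed at 1.32 ± 0.225 CPM per kb (SD, n = 3). Bmp5, Inhbb, Fstl3 and Bmp4 came next, at means of 0.546, 0.438, 0.401 and 0.3 CPM per kb, and each overlapped its neighbour in this order. Bmp8b stood apart below them at 0.0564 CPM per kb. Mstn and Inhba had means of 0.0103 and 0.00881 CPM per kb and overlapped, and Grem1 was not detected in the 3 control libraries.

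In control SkM the order was led by Mstn, at 11.6 ± 1.45 CPM per kb (SD, n = 4), followed without overlap by Bmp6 at 4.67 ± 0.72 CPM per kb and Bmp4 at 1.61 ± 0.225 CPM per kb (SD, n = 4). Fstl3, Bmp5 and Fst had means of 0.602, 0.529 and 0.519 CPM per kb and overlapped from one to the next. Inhbb lay below them at 0.177 CPM per kb. Inhba reached at most 3 counts in any SkM library, Bmp8b gave 1 count in all 14 libraries together, and Grem1 gave 0, which allows up to 0.13 CPM in a library.

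Between the control groups of the tissues, 8283 of 13797 genes tested passed an adjusted p of 0.05 and a fold change of 1.5 (60%), and 5 of the 7 members tested did so, a share near that background. Mstn was 1 of the 5 and passed the filter on low counts through its SkM level alone, so its call was not independent of that filter. Fst was lower in SkM than in BAT (log2 fold change -1.06 with a standard error, SE, of 0.19, edgeR adjusted p = 2.8e-04), and so was Inhbb (-1.02, SE 0.27, edgeR adjusted p = 0.00521). Bmp4 was higher in SkM (log2 fold change 2.7, SE 0.29, edgeR adjusted p = 3.9e-06). Fstl3 was also higher there (0.86, SE 0.27, edgeR adjusted p = 0.0133), but it missed the threshold without BAT control mouse 2 or 3 (log2 fold change 0.70 and 0.79, edgeR adjusted p = 0.0632 and 0.0509). Mstn, with at most 1 count in any control BAT library, was at least 241-fold higher in control SkM than the level of 3 counts per BAT library. Bmp5 and Bmp6 had log2 differences of 0.23 and 0.04, with standard errors of 0.23 and 0.13.

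The main question for BAT was what calorie restriction did to these signals with or without running. Among the ligands, Bmp5 was lower in both restricted groups and Inhbb was lower in the CR group, whereas the antagonist Fst was higher in restricted mice when both feeding contrasts were pooled. Bmp4, Bmp5, Bmp6, Inhbb, Fst and Fstl3 passed the filter on low counts and were tested, and Bmp8b, Inhba, Mstn and Grem1 did not pass it. Between the CR and control groups 2 of these 6 members passed the threshold, both lower, against 10.7% of all 13323 genes tested in either direction and 6.86% lower. With training, 1 of 6 passed between the CREX and EX groups, Bmp5, against 4.48% of 13251 genes in either direction and 2.63% lower.

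**Figure D1:**
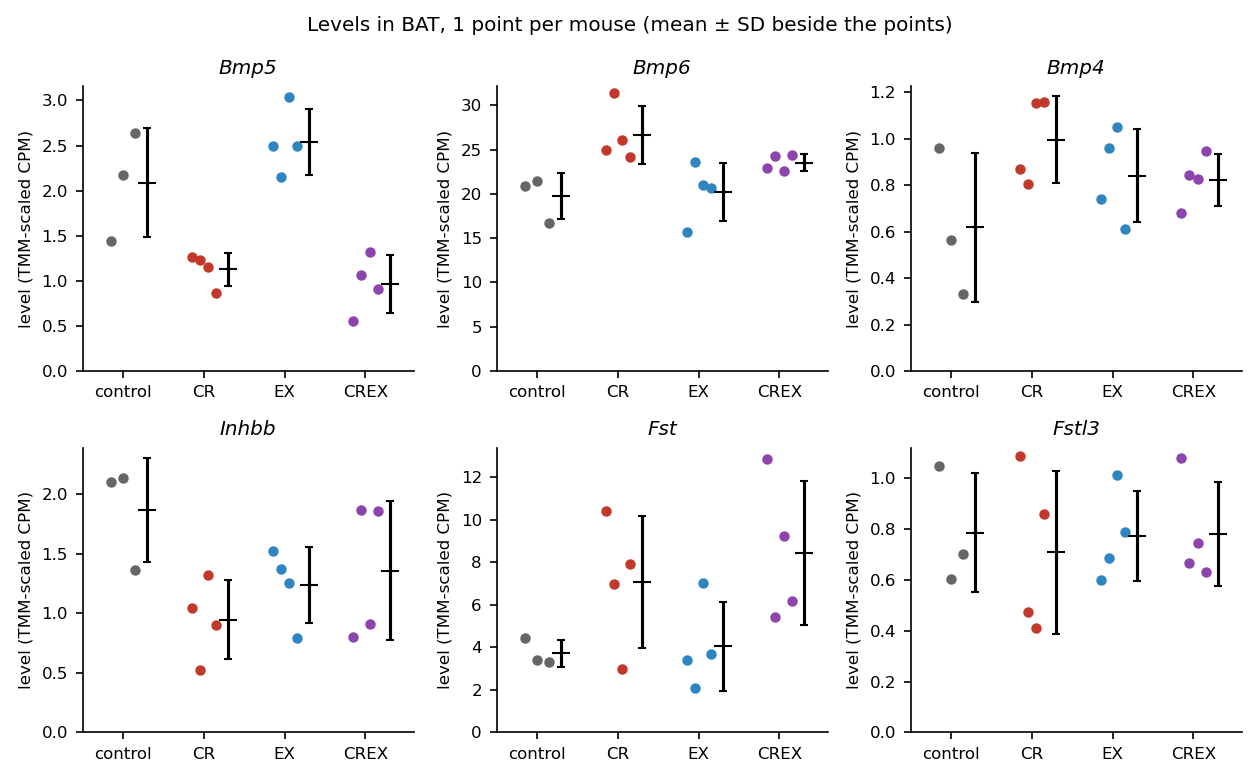
Levels of the 6 members tested in BAT, in TMM-scaled CPM on axes that start at 0, with 1 point per mouse in the control, CR, EX and CREX groups and the mean ± SD to the right of the points. Bmp5 lay between 1.44 and 3.04 CPM in the 7 freely fed mice and between 0.559 and 1.32 CPM in the 8 restricted mice, whereas the other members overlapped between these diets.

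Bmp5 encodes a BMP ligand and lies on chromosome 9 from 75775365 to 75900316 (GRCm38.p6). It stood at 1.44, 2.17 and 2.64 CPM in the control mice and at 1.26, 1.23, 1.15 and 0.859 CPM in the CR mice. The trained mice had 2.49, 2.15, 3.04 and 2.49 CPM without restriction and 0.559, 1.06, 1.32 and 0.908 CPM with it. All 8 restricted mice were therefore below all 7 freely fed mice, a separation that 4.33% of 13922 genes showed in this direction and that no other tested member showed in BAT.

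The log2 fold change of Bmp5 was -0.89 for CR mice against control mice (SE 0.25, edgeR adjusted p = 0.0303) and -1.41 for CREX mice against EX mice (SE 0.26, edgeR adjusted p = 0.0119). In 1 model with terms for CR and EX over the same libraries, in which 11.6% of 13922 genes passed (3.89% higher and 7.74% lower, with 1 member in each direction), the effect of CR on Bmp5 was -1.17 (SE 0.19, edgeR adjusted p = 2.4e-04). The interaction term, which sets the CR effect of trained mice against that of sedentary mice, was -0.52 (SE 0.37, edgeR adjusted p = 0.912). The CREX contrast and the joint effect stayed past the threshold in every alternative run, with log2 fold changes of -1.60 to -1.21 and of -1.28 to -1.05. The CR contrast of Bmp5 missed it without control mouse 2 or 3 or CR mouse 1 or 4 (log2 fold change -0.95 to -0.68, edgeR adjusted p = 0.0536 to 0.131) and with the replicate number as a block (-0.74, edgeR adjusted p = 0.137). These values rest on 14 to 75 counts per library, and every CREX library, from 23870131 counts, was larger in total than every EX library, up to 22672096 counts.

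Inhbb encodes the beta B subunit of activin B and lies on chromosome 1 from 119415463 to 119422248 (GRCm38.p6). Control mice had 2.10, 2.13 and 1.36 CPM and CR mice 1.04, 0.52, 1.32 and 0.902 CPM, so the groups did not overlap, although the lowest control mouse and the highest CR mouse lay close together. The share of all genes without overlap between these 2 groups was not counted. The EX mice had 1.52, 1.37, 1.26 and 0.788 CPM, and the CREX mice fell into a pair near 1.86 CPM and a pair at 0.798 and 0.908 CPM. The log2 fold change was -0.96 for CR mice against control mice (SE 0.30, edgeR adjusted p = 0.0418) and 0.13 for CREX mice against EX mice (SE 0.34, edgeR adjusted p = 0.851). The interaction term was 1.10 (SE 0.48, edgeR adjusted p = 0.855), and the joint CR effect was -0.39 (edgeR adjusted p = 0.288). The call between the CR and control groups was lost without control mouse 1 or 2 or CR mouse 1, 2 or 4 (log2 fold change -1.02 to -0.78, edgeR adjusted p = 0.0635 to 0.146), with the replicate block (-0.97, edgeR adjusted p = 0.156) and in 1 fit over all BAT groups (-0.97, edgeR adjusted p = 0.0645).

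The DNA just before the start of the 2 ligand genes that fell is shown with that of Bmp6, which moved the other way. The sequences are the 250 bases before the RefSeq start on the strand of the gene (GRCm38.p6). They come from a set of RefSeq promoters that held 9 of the 10 members but not Fst. Both strands were searched for AGAACA (a glucocorticoid receptor half-site), CACGTG (an E-box), TGACGTCA (a cyclic AMP response element) and GGCGCC (a SMAD GC element), and matches are in capitals. The windows are chr9:75775115-75775364 (plus strand) for Bmp5, chr1:119422249-119422498 (minus strand) for Inhbb and chr13:38345466-38345715 (plus strand) for Bmp6.
Bmp5: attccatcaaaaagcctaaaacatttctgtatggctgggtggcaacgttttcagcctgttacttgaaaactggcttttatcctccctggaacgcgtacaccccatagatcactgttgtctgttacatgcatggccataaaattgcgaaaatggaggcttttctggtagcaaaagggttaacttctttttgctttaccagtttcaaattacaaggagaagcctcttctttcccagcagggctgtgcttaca
Inhbb: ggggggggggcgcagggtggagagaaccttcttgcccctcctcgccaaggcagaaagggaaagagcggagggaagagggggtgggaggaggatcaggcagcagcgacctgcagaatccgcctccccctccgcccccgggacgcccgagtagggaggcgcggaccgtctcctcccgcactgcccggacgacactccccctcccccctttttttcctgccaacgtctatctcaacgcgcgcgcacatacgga
Bmp6: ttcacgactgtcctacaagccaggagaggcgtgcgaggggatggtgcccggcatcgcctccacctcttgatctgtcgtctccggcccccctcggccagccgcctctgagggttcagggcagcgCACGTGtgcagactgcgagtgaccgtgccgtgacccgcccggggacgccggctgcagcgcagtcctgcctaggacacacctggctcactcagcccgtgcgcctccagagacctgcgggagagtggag
The letters of the 4 motifs were not in the windows of Bmp5 and Inhbb, and Bmp6 held 1 E-box, which began 127 bases before the start. Among 32851 RefSeq promoters of the same length, 16.1% held AGAACA, 6.02% CACGTG, 1.55% TGACGTCA and 9.59% GGCGCC. The windows also differed in base composition, with 42.8% G and C for Bmp5, 68% for Inhbb and 68.8% for Bmp6.

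Bmp6, a BMP ligand also known as the signal of iron load that induces hepcidin in the liver, had 20.9, 21.5 and 16.7 CPM in the control mice and 25, 31.4, 26.1 and 24.2 CPM in the CR mice. All CR mice were above all control mice. The log2 fold change was 0.44 (SE 0.12, edgeR adjusted p = 0.0245), past the adjusted p but under the 1.5-fold minimum, as was the joint CR effect of 0.31 (SE 0.09, edgeR adjusted p = 0.0127). By the adjusted p alone 20.9% of genes passed between the CR and control groups and 33.3% for the joint effect. The EX mice stood at 15.7, 23.6, 21 and 20.7 CPM and the CREX mice at 23, 24.3, 22.5 and 24.4 CPM, which overlapped (log2 fold change 0.21, SE 0.11, edgeR adjusted p = 0.27).

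Bmp4, which favours adipocyte commitment, had 0.962, 0.563 and 0.33 CPM in the control mice and 0.868, 0.804, 1.15 and 1.16 CPM in the CR mice, with overlap. Its log2 fold change was 0.70 with a standard error of 0.35 (edgeR adjusted p = 0.176). For CREX mice against EX mice it was -0.04 with a standard error of 0.25. Bmp8b, the ligand tied to thermogenesis, gave 0 to 11 counts per BAT library, 37 counts over the 7 freely fed mice and 15 over the 8 restricted mice. The highest Bmp8b levels were 0.508 CPM in EX mouse 1 and 0.306 CPM in EX mouse 4, and CR mouse 2, at 0.284 CPM, lay within the range of the freely fed mice. Inhba, the activin A subunit, did not exceed 3 counts in any BAT library.

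Fst encodes follistatin and lies on chromosome 13 from 114452262 to 114458989 (GRCm38.p6). The control mice had 4.46, 3.42 and 3.3 CPM and the CR mice 10.4, 7, 2.97 and 7.91 CPM, so that 3 CR mice were above all control mice and CR mouse 3 was below them. The EX mice had 3.42, 2.1, 7 and 3.68 CPM and the CREX mice 12.9, 5.41, 9.25 and 6.2 CPM, which overlapped through EX mouse 3. Neither contrast passed the threshold alone, with log2 fold changes of 0.92 (SE 0.39, edgeR adjusted p = 0.139) and 1.04 (SE 0.41, edgeR adjusted p = 0.162). DESeq2 on the same groups called both (adjusted p = 0.0268 and 0.0346). Without CR mouse 3, the lowest of its group, a larger difference between CR and control mice had to follow. EdgeR then called that contrast (log2 fold change 1.18, adjusted p = 0.00109). The joint CR effect was 0.99 (SE 0.29, edgeR adjusted p = 0.0197) and passed in all 23 alternatives, up to an adjusted p of 0.0417. Restricted mice averaged 7.75 ± 3.09 CPM (SD, n = 8) and freely fed mice 3.91 ± 1.53 CPM (SD, n = 7).

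Fstl3, the second activin and myostatin antagonist, lay between 0.6 and 1.05 CPM in the freely fed mice and between 0.412 and 1.09 CPM in the restricted mice. Its log2 fold changes were -0.14 (SE 0.37) for CR and 0.00 (SE 0.28) for CREX against EX (edgeR adjusted p = 0.816 and 0.995), so changes of that size were within the error. Grem1, the BMP antagonist, was at 0 counts in 12 of the 15 BAT libraries, at 1 count in CREX mouse 2 and EX mouse 2 and at 9 counts in EX mouse 3.

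**Figure D2:**
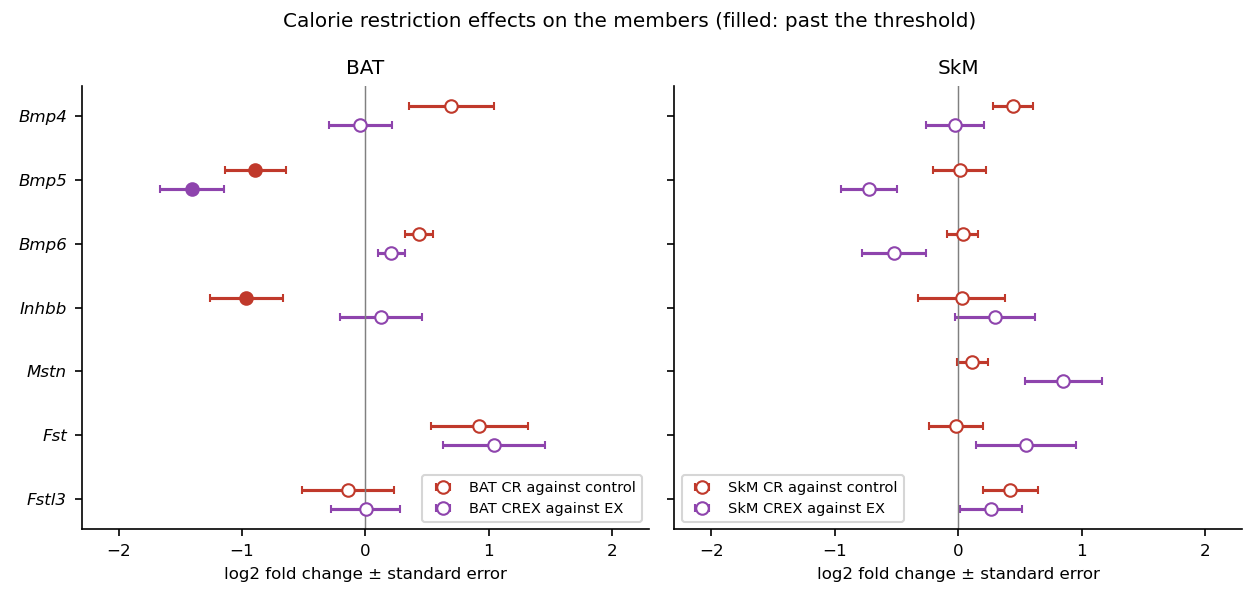
Log2 fold changes with standard errors of the members tested, for the CR group against the control group and the CREX group against the EX group, in BAT (left) and SkM (right), with filled points where edgeR's adjusted p is under 0.05 and the change exceeds 1.5-fold. Only Bmp5 in both BAT contrasts and Inhbb in BAT CR against control are filled, at -0.89, -1.41 and -0.96.

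Training gave no call among the members in BAT. Between the EX and control groups edgeR called 0 of 6 members and 0 of all 13407 genes (0%), with 0 members and 972 genes (7.25%) at an unadjusted p under 0.05, and DESeq2 called 0 members. Bmp5 had a log2 fold change of 0.30 (SE 0.23) and Inhbb -0.58 (SE 0.28, edgeR adjusted p = 0.699). Between the CREX and CR groups edgeR called 0 of 6 members against 0.00763% of 13112 genes, with 0 members and 7.63% of genes at an unadjusted p under 0.05 and 0 members called by DESeq2. The 4 comparisons of a tissue share groups and are not independent of one another.

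Mstn in BAT was low and uneven, and it was read beside the muscle fibre transcripts of the same libraries. The counts were 1, 1 and 0 in the control mice, 0, 0, 4 and 5 in the CR mice, 3, 31, 8 and 0 in the EX mice and 5, 8, 22 and 4 in the CREX mice. The muscle score of a library, the mean log2(CPM + 1) of the 12 muscle fibre markers, left a gap between 2.72 and 5.82. The 5 libraries below it had 0 or 1 Mstn counts and the 10 above it had 1 to 31, with a median of 5. Within those 10 libraries the score and Mstn had Pearson's r = 0.75 (permutation p = 0.00981, 0.0981 adjusted over the 10 members) and Spearman's rho = 0.624 (permutation p = 0.0602, 0.602 adjusted). Without CREX mouse 3 and EX mouse 3, the farthest from the median score, r was 0.789. Over all 15 BAT libraries Bmp4 also rose with the score by Pearson's r = 0.654 (adjusted permutation p = 0.0359), with Spearman's rho = 0.521 (adjusted permutation p = 0.165). Within the 10 libraries r of Bmp4 was -0.00938 (permutation p = 0.979).

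Per 100000 muscle marker counts, the 15 BAT libraries together held 14 Mstn counts, with single libraries from 0 to 37.2, and the 14 SkM libraries together held 23.9, with single libraries from 16.5 to 40.5. The ranges of single libraries overlapped between the tissues, but both ends of the BAT range come from libraries with 0 or 1 Mstn counts. From counting error alone, the 95% intervals of the pooled values were 11.3 to 17.1 for BAT and 23.5 to 24.3 for SkM. These intervals leave out the spread between mice, so they give no test of a tissue difference. The SkM groups stood at 21.5 (control), 17.6 (CR), 22.6 (EX) and 33.5 (CREX), all outside the SkM interval. The muscle markers summed to 47.6 to 859 CPM in control, 59.5 to 1770 in CR, 51.1 to 4740 in EX and 1280 to 7440 CPM in CREX libraries. The part of muscle RNA in the other BAT results was examined with the score as a covariate. Bmp5 then had log2 fold changes of -0.73 for CR (edgeR adjusted p = 0.0431) and -1.46 for CREX against EX (edgeR adjusted p = 0.0139). Inhbb had -1.09 for CR against control (edgeR adjusted p = 0.0204). The joint effect on Fst was called (edgeR adjusted p = 0.0231), but its CR and CREX contrasts were not (edgeR adjusted p = 0.115 and 0.2). Without the 3 libraries richest in muscle RNA, the CREX contrast of Bmp5 was -1.56 (edgeR adjusted p = 0.0435).

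**Figure D3:**
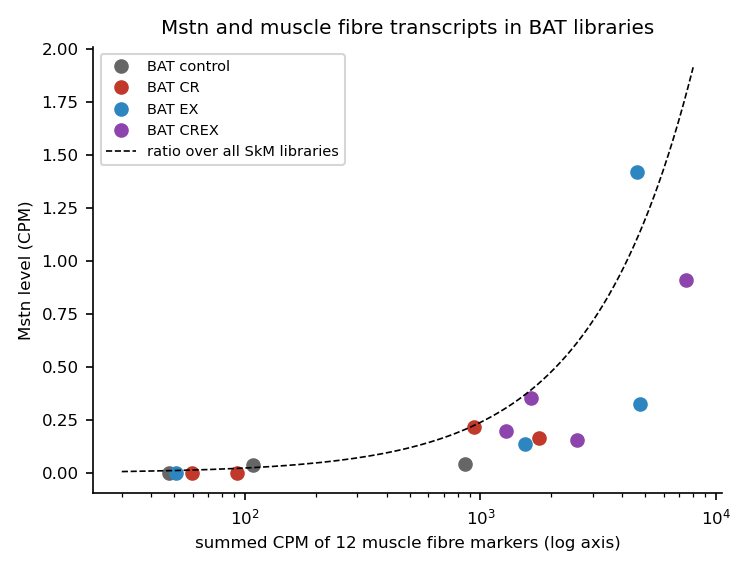
Mstn level in CPM against the summed CPM of 12 muscle fibre markers (log axis), 1 point per BAT library and coloured by group, with a dashed line at the Mstn to marker ratio of all SkM libraries. The libraries with the lowest sums lie near 0, EX mouse 2 is highest at 1.42 CPM, and CREX mouse 3, with the largest sum of 7440 CPM, has 0.908 CPM.

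Markers of other cells moved with diet in BAT as well. The 7 fibroblast and fibro-adipogenic markers summed to 156 to 213 CPM in control and 177 to 906 in EX libraries but to 73.2 to 101 in CR and 86.9 to 97.4 CPM in CREX libraries, without overlap between the diets. The 7 endothelial markers summed to 378 to 411 CPM in control, 258 to 334 in CR, 310 to 375 in EX and 264 to 316 CPM in CREX libraries. The EX range overlapped those of both restricted groups. The 4 B cell markers summed to 1.11 to 1.97 CPM in control and 0.96 to 1.66 in EX libraries against 0.174 to 0.247 in CR and 0.0798 to 0.355 CPM in CREX libraries. The 8 brown adipocyte markers summed to 6750 to 7850 and 5890 to 6810 CPM against 4610 to 5340 and 3590 to 5000 CPM. Neither sum overlapped between the diets. Median Ucp1 in control, EX, CR and CREX libraries was 4200, 3560, 1970 and 1680 CPM. For Cidea, the next most abundant of the 8, it was 1560, 1510, 1510 and 1360 CPM. The 6 mesothelial markers summed to 2.19 to 3.66 and 3.34 to 6 CPM in these freely fed groups against 6.55 to 8.65 and 6.07 to 9.2 CPM in the restricted groups, most of it from Lrrn4, with Wt1 and Upk1b at 0 in every group. By deconvolution the authors reported the opposite direction, a lower mesothelial proportion in CR than in control BAT. Macrophage markers, at 46.8 to 50.6 and 47.5 to 80.7 CPM against 22 to 38.2 and 24.2 to 50.4 CPM, overlapped between the diets. The part of these cells in the levels of Bmp5, Inhbb and Fst was not tested.

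In SkM the question was the same, and no member passed the threshold in any of the 4 comparisons. Bmp4, Bmp5, Bmp6, Inhbb, Mstn, Fst and Fstl3 were tested. Between the CR and control groups edgeR called 0 of 7 members against 9.6% of 13173 genes, with 1 member and 29.3% of genes at an unadjusted p under 0.05 and 0 members called by DESeq2. Between the CREX and EX groups it called 0 of 7 against 8.87% of 13112 genes, with 2 members and 32.3% of genes at an unadjusted p under 0.05 and 1 member called by DESeq2, Mstn. Training alone gave 0 of 7 against 0.0775% of 12907 genes (0 members and 6.85% of genes at an unadjusted p under 0.05 and 0 members by DESeq2), and CREX against CR gave 0 of 7 and 0% of 13068 genes in edgeR (1 member and 3.65% of genes at an unadjusted p under 0.05, 0 members by DESeq2). The joint CR effect passed for 0 of 7 members against 13.9% of 13610 genes in edgeR (2 members and 45.1% of genes at an unadjusted p under 0.05, 0 members by DESeq2).

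**Figure D4:**
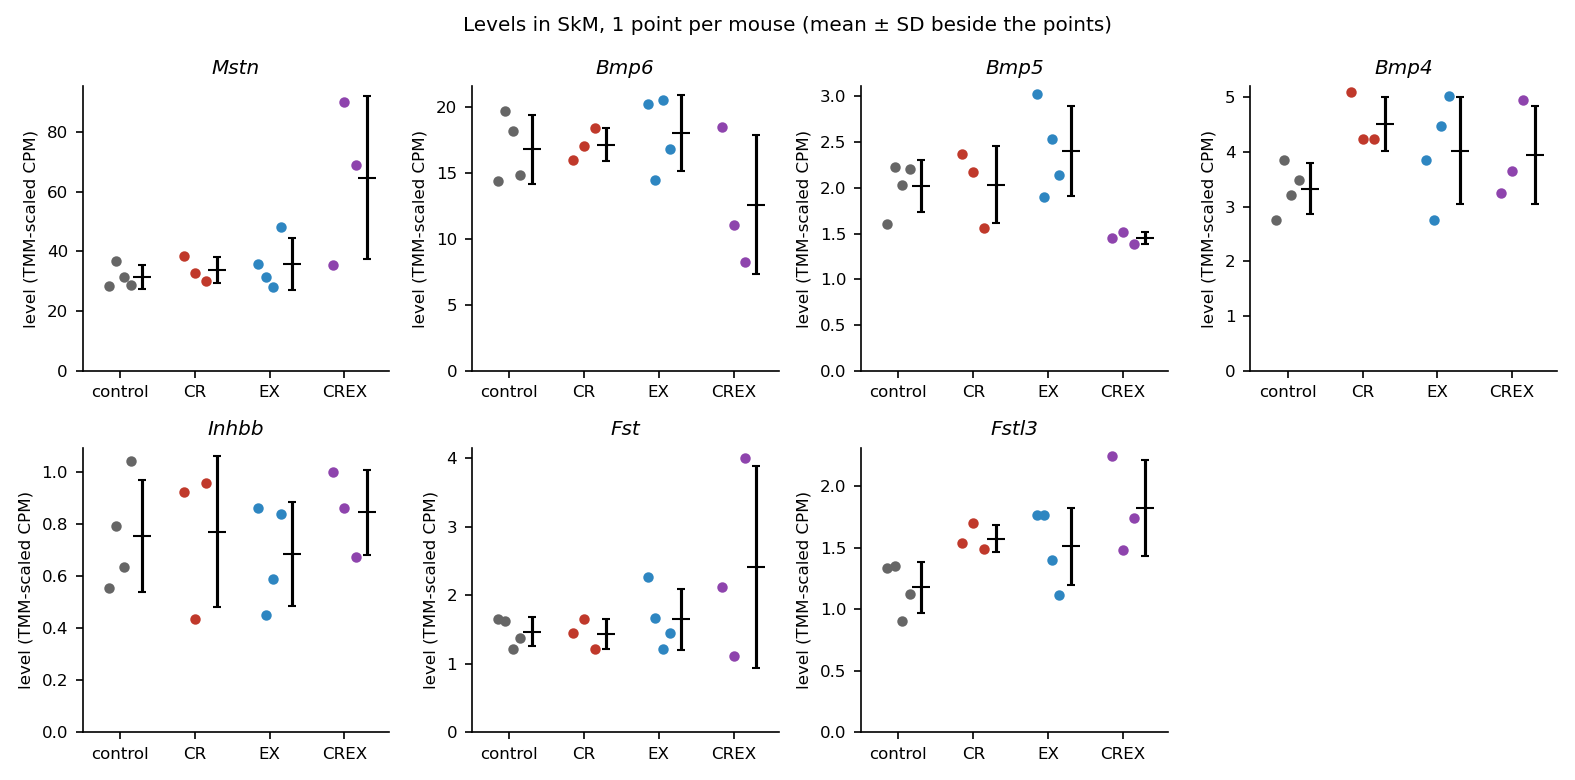
Levels of the 7 members tested in SkM, in TMM-scaled CPM on axes that start at 0, with 1 point per mouse and the mean ± SD to the right. Mstn reached 68.8 and 89.8 CPM in CREX mice 3 and 2, above the 27.9 to 48.1 CPM of all other mice, and Bmp5 was lowest in the CREX group, at 1.39 to 1.52 CPM.

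Mstn, on chromosome 1 from 53061640 to 53068079 (GRCm38.p6), had 28.4, 36.9, 31.5 and 28.7 CPM in the control mice, 38.5, 32.8 and 30.2 CPM in the CR mice and 35.8, 31.6, 27.9 and 48.1 CPM in the EX mice. In the CREX group it stood at 35.5, 89.8 and 68.8 CPM. CREX mice 2 and 3 were above every other mouse, and CREX mouse 1 was within the range of the other groups. The log2 fold change of CREX against EX was 0.85 (SE 0.31, edgeR adjusted p = 0.106) and that of CREX against CR was 0.93 (SE 0.30, edgeR adjusted p = 0.999). The first passed with DESeq2 (adjusted p = 0.0214) and in 1 edgeR fit over all SkM groups (adjusted p = 0.0306). Leaving out CREX mouse 1, the lowest of its group for Mstn, kept only CREX mice 2 and 3, so larger differences had to follow. Both contrasts then passed, at 1.15 (edgeR adjusted p = 0.00659) and 1.22 (edgeR adjusted p = 0.0281), and so did the joint CR effect (0.60, edgeR adjusted p = 0.0255, against 0.50 and 0.0774 with all mice).

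The CREX against EX difference in Mstn was set beside the fibre markers, whose sums were 135000 to 154000 CPM in control, 168000 to 233000 in CR, 149000 to 175000 in EX and 170000 to 222000 CPM in CREX libraries. Per 100000 marker counts Mstn stood at 21.5 in control, 17.6 in CR, 22.6 in EX and 33.5 in CREX libraries, and single CREX libraries ran from 20.9 to 40.5. The CR and control groups differed in log2 Mstn level by 0.12 (SE 0.13).

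Bmp5 in SkM had 3.03, 1.9, 2.53 and 2.14 CPM in the EX mice and 1.46, 1.52 and 1.39 CPM in the CREX mice. These groups did not overlap, a separation whose share among all genes was not counted. The log2 fold change was -0.72 (SE 0.22, edgeR adjusted p = 0.0592), short of the threshold, and it passed in 1 fit over all SkM groups (-0.71, edgeR adjusted p = 0.03). The CR mice, at 2.37, 2.17 and 1.57 CPM, overlapped the control mice at 1.61, 2.23, 2.04 and 2.2 CPM (log2 fold change 0.01, SE 0.21). The interaction term was -0.72 (SE 0.30, edgeR adjusted p = 0.941).

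Bmp6 in SkM had 18.4, 11 and 8.25 CPM in the CREX mice and 20.2, 14.5, 20.5 and 16.8 CPM in the EX mice. The same CREX mice 2 and 3 that were high for Mstn were low for Bmp6. The log2 fold change of CREX against EX was -0.52 (SE 0.26, edgeR adjusted p = 0.204). Without CREX mouse 1, the highest of its group for Bmp6, it was -0.90 (SE 0.17, edgeR adjusted p = 0.00317), with only CREX mice 2 and 3 left. Bmp4 missed the threshold in every SkM comparison, with 5.09, 4.23 and 4.24 CPM in the CR mice against 2.76, 3.86, 3.21 and 3.49 CPM in the control mice (log2 fold change 0.44, SE 0.16, edgeR adjusted p = 0.095).

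Among the remaining members in SkM, Fstl3 had 1.54, 1.7 and 1.49 CPM in the CR mice and 1.33, 1.35, 0.905 and 1.12 CPM in the control mice (log2 fold change 0.42, SE 0.22, edgeR adjusted p = 0.231). These Fstl3 levels did not overlap, a separation whose share among all genes was not counted. The joint CR effect on Fstl3 was 0.34 (SE 0.15, edgeR adjusted p = 0.0944). Fst lay between 1.11 and 2.26 CPM in all mice but CREX mouse 3, at 4.01 CPM, and its joint CR effect was 0.28 (SE 0.24). Inhbb lay between 0.435 and 1.04 CPM over all groups, with a joint CR effect of 0.16 (SE 0.23).

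Whether CR acted differently on the tissues was tested directly. In sedentary mice the difference, SkM minus BAT, passed for 0 of 7 members against 7.58% of 14369 genes in edgeR, with 2 members and 23.2% of genes at an unadjusted p under 0.05 and 0 members called by DESeq2. It was 0.89 for Bmp5 (SE 0.33, edgeR adjusted p = 0.112), 0.98 for Inhbb (SE 0.49, edgeR adjusted p = 0.244) and -0.95 for Fst (SE 0.45, edgeR adjusted p = 0.223). For Fst it was -1.22 (edgeR adjusted p = 0.0141) without BAT CR mouse 3, the lowest of its group for Fst, so a larger difference had to follow. In trained mice 0 of 7 passed against 5.58% of 14410 genes in edgeR, with 1 member and 22.2% of genes at an unadjusted p under 0.05 and 0 members called by DESeq2. The difference for Bmp6 was -0.74 there (SE 0.29, edgeR adjusted p = 0.146), and -1.11 without SkM CREX mouse 1, the highest of its group for Bmp6 (edgeR adjusted p = 0.00308). The interaction of CR and EX passed for 0 of 6 members in BAT and 0 of 7 in SkM (0% of all genes in both), with 1 member in each, 5.75% of BAT genes and 4.92% of SkM genes at an unadjusted p under 0.05 in edgeR and 0 members called by DESeq2.

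The other genes of the pathway were read from 6 lists under the joint CR effect. In BAT the list of BMP-SMAD target genes had 5 of 11 tested members lower and 0 higher, beside 7.74% lower and 3.89% higher among all genes, with a median log2 fold change of -0.53 against 0.00 over all genes. Msx1 fell from 1.39 ± 0.237 CPM (SD, n = 7) in freely fed to 0.625 ± 0.18 CPM (SD, n = 8) in restricted mice (log2 fold change -1.15, SE 0.20, edgeR adjusted p = 4.3e-04). Smad6, the feedback inhibitor of BMP receptors, fell from 12.2 ± 4.7 to 3.4 ± 1.28 CPM (-1.83, SE 0.29, edgeR adjusted p = 4.5e-04). Id3, an inhibitor of basic helix-loop-helix factors, fell from 22.2 ± 5.74 to 13.4 ± 3.16 CPM (-0.73, SE 0.19, edgeR adjusted p = 0.00857). Id1 (-0.67) and Atoh8 (-0.60) completed the 5, with edgeR adjusted p = 0.0112 and 0.0265.

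In the separate BAT contrasts the target list had 3 of 10 lower between the CR and control groups (Smad6, Msx1 and Id3, median -0.78, beside 6.86% of all genes) and 1 of 11 lower between the CREX and EX groups (Msx1, median -0.32, beside 2.63% of all genes). In the list of SMADs and their regulators 3 of 13 were lower under the joint effect (beside the 7.74% of all genes) and 0 higher, namely Smad6, which is in both lists, Smad3 (-0.77, edgeR adjusted p = 0.0176) and the repressor Skil (-1.18, edgeR adjusted p = 0.0289). Of 16 receptors and co-receptors only endoglin (Eng), an endothelial co-receptor, was called, lower at 45.9 ± 6.2 against 69.5 ± 7.72 CPM (-0.60, SE 0.09, edgeR adjusted p = 1.2e-04). Of 4 other ligands Gdf5 was lower (-0.95, edgeR adjusted p = 0.00376), of 9 other antagonists Fstl1 was lower (-0.90, edgeR adjusted p = 0.0195), and of 5 processing proteases 0 were called by edgeR. The fibroblast, B cell, brown adipocyte and mesothelial sums given above also differed with diet, the last of them mostly Lrrn4. The endothelial sums overlapped between the diets through the EX libraries alone. Under the same joint effect edgeR called the B cell marker Cd79a (-3.44, adjusted p = 2.1e-06), the macrophage marker Adgre1 (-0.88, adjusted p = 0.00513) and Lrrn4 (1.09, adjusted p = 5.5e-04), the only mesothelial marker tested. Of the fibroblast markers Col1a1 (-2.36), Col3a1 (-1.92), Dpt (-0.97) and Lum (-0.94) were called lower, and Pdgfra, Pi16 and Dpp4 were not called. Of the endothelial markers only Cldn5 was called, lower (-1.01, edgeR adjusted p = 0.00506). Kdr (-0.44), Cdh5 (-0.39) and Tie1 (-0.29) passed the adjusted p but not the fold change, and Tek, Pecam1 and Emcn passed neither. The brown adipocyte list had calls in both directions. Ucp1 (-1.01, edgeR adjusted p = 3.5e-05), Adrb3 (-0.78, adjusted p = 4.5e-04) and Ppargc1a (-0.80, adjusted p = 0.0487) were lower. Elovl3 was higher (0.89, edgeR adjusted p = 0.00703), and Dio2, Cidea, Cox7a1 and Cox8b were not called. The part of any of these cell types in the pathway genes was not tested.

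**Figure D5:**
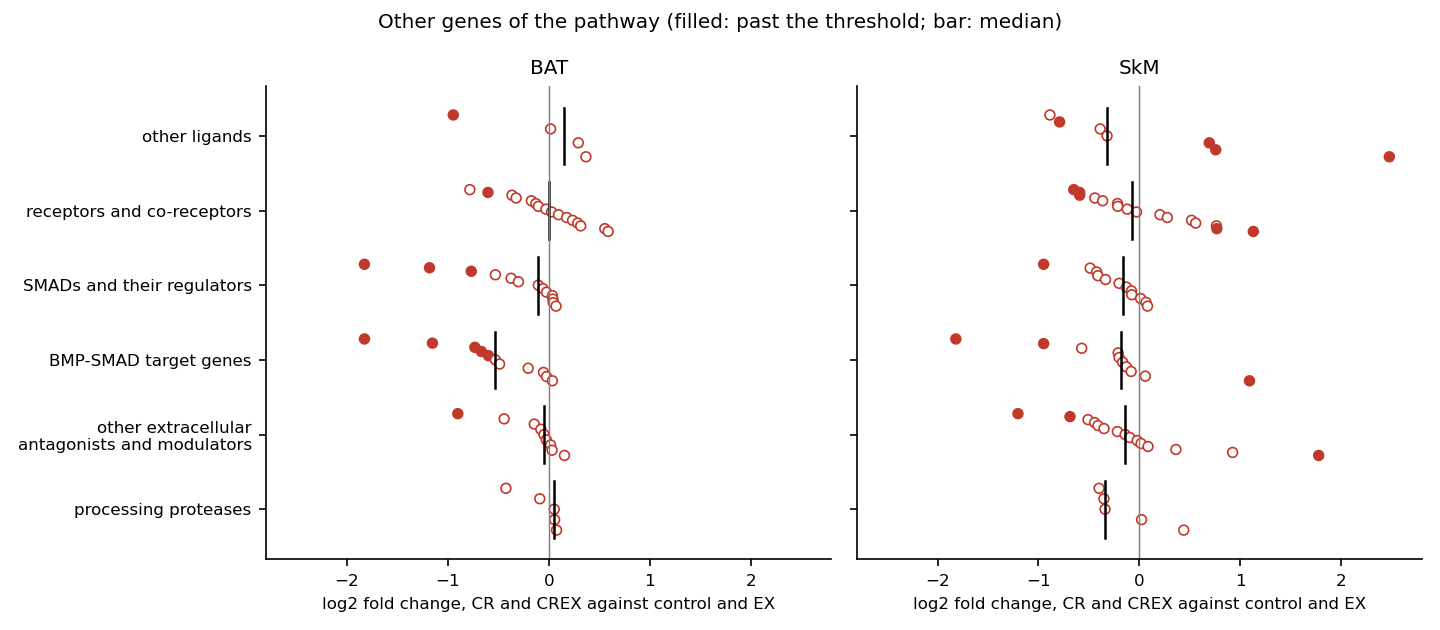
Log2 fold changes of the joint CR effect (CR and CREX against control and EX) for the genes of 6 pathway lists in BAT (left) and SkM (right), 1 point per tested gene, filled where an edgeR adjusted p is under 0.05 and the fold change above 1.5, with a bar at the median of each list. The BMP-SMAD target genes have 5 filled points below 0 in BAT, with a median of -0.53, and 2 below and 1 above 0 in SkM, with a median of -0.18.

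In SkM the receptor list had calls in both directions, 2 higher and 3 lower of 16, beside 13.9% of all 13610 genes called in either direction under the joint effect, a background that holds for the other SkM lists too. Acvr1, a type I BMP receptor, fell from 12.4 ± 0.811 CPM (SD, n = 8) to 7.9 ± 0.592 CPM (SD, n = 6), with a log2 fold change of -0.65 (SE 0.07, edgeR adjusted p = 9.9e-06). Acvr1b, a type I receptor for activins and myostatin, rose from 18.6 ± 4.33 to 40.1 ± 9.37 CPM (1.13, SE 0.15, edgeR adjusted p = 9.3e-05). The co-receptor Tgfbr3 rose by 0.77 (edgeR adjusted p = 9.2e-05), and Acvr2b and Bmpr1b both fell by 0.59 (edgeR adjusted p = 0.0242 and 0.00134).

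Target genes in SkM did not move one way, with 1 higher and 2 lower of 10 tested and a median of -0.18 against 0.01 over all genes. Smad6 was lower there too, at 2.46 ± 0.644 against 4.74 ± 0.651 CPM (log2 fold change -0.95, SE 0.14, edgeR adjusted p = 1.1e-04), Id4 was lower (-1.82, edgeR adjusted p = 0.0108) and Atoh8 was higher (1.09, edgeR adjusted p = 0.00207). Smad6 was the call among 12 SMADs and their regulators. Of 7 other ligands 3 were higher and 1 lower, led by Bmp8a, the paralog of Bmp8b, at 0.756 ± 0.393 against 0.134 ± 0.121 CPM (2.48, SE 0.46, edgeR adjusted p = 8.0e-04), which leaves both groups low. Inha (0.69) and Gdf10 (0.76) were the others that rose and Gdf11 (-0.79) the one that fell, with edgeR adjusted p = 0.00531, 0.0452 and 0.0444. Among the other antagonists Kcp (-1.20) and Twsg1 (-0.69) fell (edgeR adjusted p = 2.1e-04 and 1.1e-04), and of 5 processing proteases 0 were called by edgeR. Endothelial markers summed to 257 to 326 CPM in control and 257 to 316 in EX libraries, against 163 to 206 in CR and 114 to 233 CPM in CREX libraries, and fibroblast markers to 118 to 193 CPM in freely fed against 48.9 to 78.1 CPM in restricted mice, and their part in these results was not tested.

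The genes whose BAT levels most resembled those of the called members were found by Pearson's r of log2(CPM + 1) over the 15 BAT libraries among 13922 genes, where all points share the same libraries and diets. For Bmp5 they were Prps2 (r = 0.925), Evl (r = 0.918) and Cd37 (r = 0.917). For Inhbb they were Mpp3 (r = 0.892), Glyctk (r = 0.88) and Plin4 (r = 0.857). For Fst they were Zfp950 (r = 0.912), Wdr92 (r = 0.911) and Cited2 (r = 0.895).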

How the data were processed

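The authors trimmed the 150 bp paired reads with trim-galore, aligned them to mm10 with STAR (2.7.10a per the submitters' processing notes) and quantified them with RSEM. Its expected counts, 1 row per gene symbol and without normalization, are what the authors deposited, and they were rounded to whole counts here. The annotation behind the counts and strand handling are not given in the sources used here. R 4.3.3 with edgeR 4.0.16 and DESeq2 1.42.0 and Python 3.11.15 with scipy 1.17.1 were used.

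Each comparison was fitted with edgeR's robust quasi-likelihood test over all genes kept by filterByExpr, after TMM normalization, on the libraries of its own groups. Calls needed a Benjamini-Hochberg adjusted p under 0.05, over all genes tested, and a fold change above 1.5. Interactions and tissue differences needed the adjusted p alone. The joint CR effect came from a model with terms for CR and EX over the 4 groups of a tissue. Standard errors (SE) were derived from the log2 fold change and its F statistic. Levels per kb used the union of GENCODE vM21 exons, and coordinates are from the RefSeq table of GRCm38.p6. Each library was taken as 1 mouse, and nothing read here says whether BAT and SkM libraries came from the same mice.

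Members and lists were chosen with earlier results of these data known. All members were named. From each pathway list up to 3 called genes with the smallest p were named, and further called genes were named after their values were seen where a list had 5 or fewer. For each called member the 3 genes most like it were named. Alternatives were RLE size factors, DESeq2, an unfiltered table, a filter of 10 counts or more in each library, no fold change minimum, 1 fit over all groups of a tissue, a replicate block, the muscle score as covariate, a pseudocount of 0.1 instead of 1 for the muscle relation, and each mouse left out in turn. Leaving out the 3 BAT libraries richest in muscle RNA, and the relation within the 10 BAT libraries with higher muscle scores, were added after the data had been seen. The tests were also run on simulated data. A result of the antagonist list in SkM is not reported here.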

Additional observations from a re-analysis of the deposited data

Results flagged for a closer look

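Among 45 groups of 4 mice examined, 1 per member and group of that size where any library had a count, 4 had a mouse far from the others by Dixon's criterion. All 4 concerned members at or near 0 counts in BAT. Chance meets the criterion in about 1 of 20 groups of normally distributed values, a rate that does not hold for counts this low. A single count beside zeros always meets it. Inhba was at 0.121 CPM in EX mouse 3 (3 counts, against 0.0438 to 0.0462 CPM in the other EX mice) and at 0.0413 CPM in CREX mouse 3 (1 count, the others at 0). Grem1 was at 0.364 CPM in EX mouse 3 (9 counts, against 0 to 0.0457 CPM) and at 0.0443 CPM in CREX mouse 2 (1 count, the others at 0). EX mouse 3 was also among the 3 BAT libraries richest in muscle transcripts, and whether its Grem1 level was tied to that was not tested.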

How the results depend on the processing

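The number of members called was recomputed under 260 alternatives for 16 results and stayed within 1.5 times its value in 242 of them. Of the BAT CR against control calls (2), 1 was left in 1 fit over all groups, and leaving out each mouse gave 0 to 3. A replicate block left 0 there, and the block changed no other count by over 1.5 times. Same-numbered mice did not pair, with mean correlations of their deviations of -0.302 to 0.146 over the comparisons. For BAT CREX against EX DESeq2 gave 2 in place of 1. For SkM CREX against EX, with 0 calls, DESeq2 gave 1 and 1 fit over all groups gave 2, and leaving out each mouse gave 0 to 2. Leaving out each mouse gave 0 to 1 in place of 0 for SkM CREX against CR, the SkM joint CR effect and both tissue differences. For SkM against BAT controls, at least 10 counts in every library gave 3 in place of 5, with fewer members tested. Over all 15 BAT libraries 2 members (Mstn and Bmp4) passed an adjusted permutation p of 0.05 for Pearson's r with the muscle score, and 0 without the 2 libraries farthest from its median, where r of Mstn moved from 0.709 (adjusted permutation p = 0.0162) to 0.697 (0.118). Spearman's rho of Mstn over all 15 was 0.879 (adjusted permutation p = 0.0009). The cause of these changes was not tested unless named. Of 1680 recomputed member values, 0 called values changed sign, 14 lost and 14 gained the threshold, and 81 values that were never called changed sign. Depth limited Bmp8b, Inhba and Grem1, at most at 11, 3 and 9 counts in any library, and Mstn in BAT, where 8 of 15 libraries had more than 3 counts.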
